A study of Mus musculus with 12 samples.

Results

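Semaphorins, plexins and neuropilins are the ligands, receptors and co-receptors of a guidance system that steers migrating cells and growing axons and vessels. The genes were taken by symbol from the array annotation: every symbol that starts with Sema and a digit or with Plxn, and Nrp1 and Nrp2. This gave 31 of the 19938 genes measured, 20 semaphorins, 9 plexins and 2 neuropilins, which are all 31 protein-coding genes with such symbols in the mouse RefSeq table. Each gene is read on the probe set with the highest mean over 12 arrays. The 31 genes had 33 probe sets, since Sema4d and Sema6b had 2 each.

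The material was the dissected heart of mouse embryos at E8.75, when the heart is a looping tube, and the design asks how the cardiac transcription factors Nkx2-5 and Tbx5 act alone and together. The 4 groups had 3 Affymetrix arrays each, numbered as biological replicates: WT (wild type), knockout of Nkx2-5 (Nkx2-5 KO), knockout of Tbx5 (Tbx5 KO), and knockout of both (Tbx5 KO;Nkx2-5 KO, here double KO). The alleles, the strain and whether embryos were pooled are not given in the sources used here. Expression is given as log2 values, so a difference of 1 is a doubling of signal. Signals of different probe sets do not rank genes by their amount of RNA.

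A semaphorin binds a plexin, either directly or, for most secreted class 3 semaphorins, through a neuropilin that holds the ligand while the plexin carries the signal into the cell. Plexins act on small GTPases and the cytoskeleton, and the usual outcome is repulsion or loss of adhesion. In the heart the system is known for guiding neural crest cells into the outflow tract, for patterning vessels and veins, and for shaping the chamber wall. Neuropilins also bind vascular endothelial growth factors, so they serve vessel growth as well.

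All changes below are differences between group means ± their standard error from a limma fit over all genes with 3 arrays a group, with p adjusted by Benjamini and Hochberg over all 19938 genes. A gene was called when its adjusted p was under 0.05. Across the family, 5 of 31 members were called in Nkx2-5 KO against WT (3 higher, 2 lower), beside 4.43% of all genes (1.84% higher, 2.59% lower). In Tbx5 KO against WT, 3 of 31 were called (1 higher, 2 lower), beside 2.31% of all genes (0.998% higher, 1.31% lower). In double KO against WT, 12 of 31 were called (9 higher, 3 lower), beside 23.4% of all genes (9.05% higher, 14.4% lower). In at least 1 of these comparisons 14 members were called, beside 24.6% of all genes. The arrays of the 2 groups did not overlap for 10 members in Nkx2-5 KO against WT (23.2% of all genes), for 13 in Tbx5 KO against WT (21.1%) and for 16 in double KO against WT (41.1%). The median change of the 31 members was 0.098 for loss of Nkx2-5, 0.022 for loss of Tbx5 and 0.092 for loss of both, where that of all genes was 0.005, 0.01 and 0.064. The 3 comparisons share the WT arrays. Changes in RNA from whole hearts cannot tell apart fewer cells of a type and less RNA per cell.

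**Figure D1:**
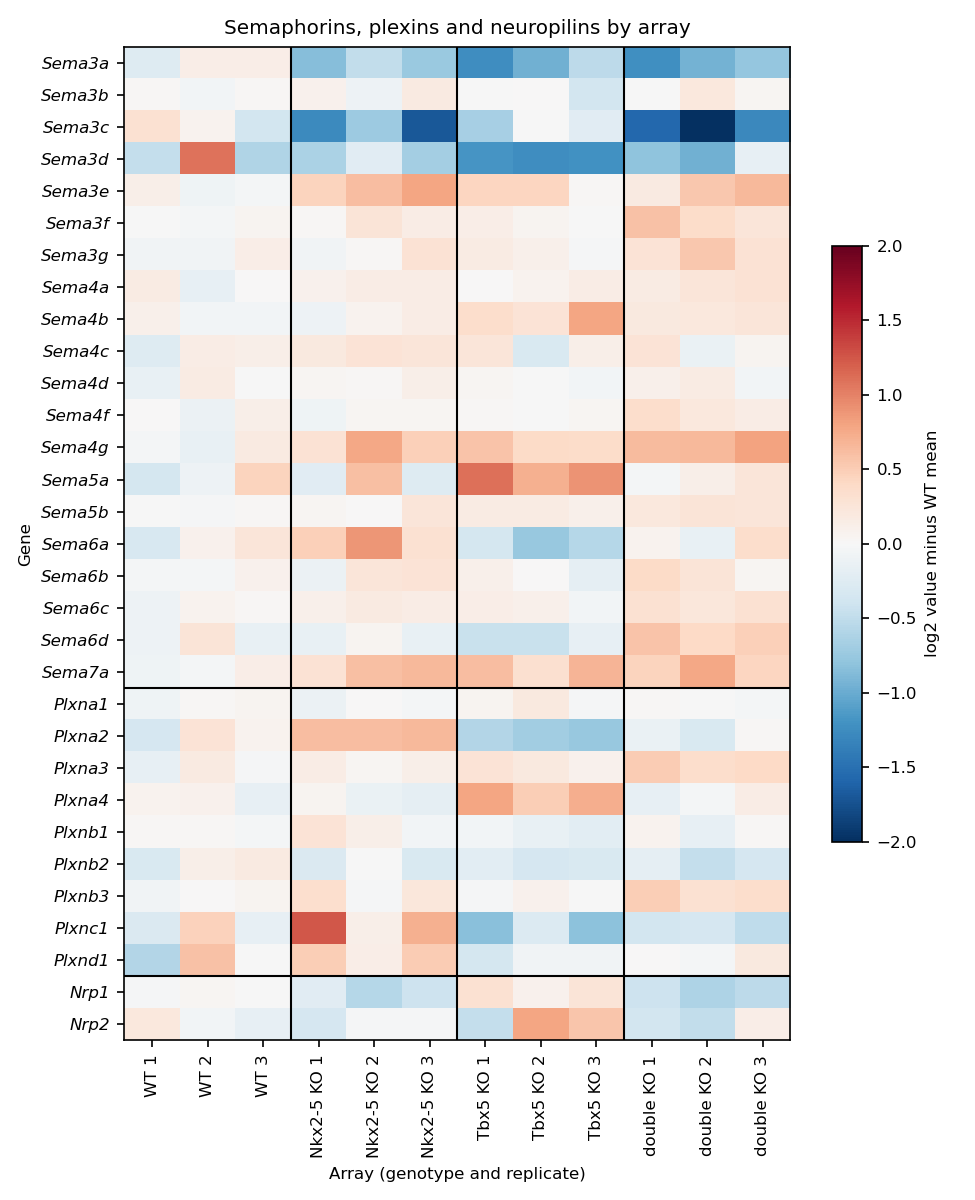
Each row is a gene (semaphorins, then plexins, then neuropilins) and each column an array, coloured by the log2 value minus the mean of the 3 WT arrays. Sema3c is blue on the Nkx2-5 KO and double KO arrays, Sema3a on all 9 KO arrays, and Plxna2 is red on the 3 Nkx2-5 KO arrays and blue on the 3 Tbx5 KO arrays.

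Some properties of the arrays bear on every result. Array medians lay between 8.05 and 8.25. The 8 cardiac muscle markers were bright on every array, except Nppa, which was 8.01 to 8.37 on the double KO arrays. Nppa averaged 13.37 in WT, and with loss of Nkx2-5, of Tbx5 or of both it averaged 10.72, 10.06 and 8.13. The average of the 8 was 13.29 to 13.33 on the WT arrays and 12.87 to 13.17 on the single KO arrays. On the double KO arrays it was 12.64 to 12.75, and these ranges did not overlap. In double KO 3 of the 8 rose and 2 fell, with a median change of 0.06. The fall of the average came mostly from Nppa and is not a fall of the list as a whole. The 10 measured blood cell markers averaged 9.39 to 10.15 on the WT arrays and 8.751 to 9.251 on the double KO arrays, where 4 fell and 1 rose. They averaged 9.163 to 10.044 on the Nkx2-5 KO arrays and 9.245 to 9.469 on the Tbx5 KO arrays, and both ranges overlapped that of double KO. The part of either list in the changes of the members in double KO was not tested. Xist, which coats and silences 1 X chromosome in female cells, was 11.5 to 12.3 on the WT and Tbx5 KO arrays and 6.44 to 8.16 on the Nkx2-5 KO and double KO arrays, and the Y-linked Eif2s3y ran the opposite way, at 5.07 to 6.92 and 10.3 to 10.7. Nkx2-5 loss and this difference between arrays cannot be told apart, whereas Tbx5 KO against WT and double KO against Nkx2-5 KO each compare arrays alike in it. The 9 measured markers of trophoblast and decidua averaged 8.79 to 8.90 on the Tbx5 KO arrays and 7.17 to 7.44 on the other 9, and 5 of them rose in Tbx5 KO. Neural crest and pharyngeal mesenchyme markers (9 measured) averaged 8.663 on Nkx2-5 KO replicate 2, beside 8.031 and 8.117 on the other Nkx2-5 KO arrays. On the arrays of the other groups they averaged 7.865 to 8.178. On Nkx2-5 KO replicate 2 Prrx1 was 10.29, beside 8.39 and 8.37 on the other Nkx2-5 KO arrays, and Tfap2a 8.07, beside 6.40 and 6.69. Sox10 was 8.82, beside 8.61 and 8.82, Foxd3 7.39, beside 7.38 and 7.34, and Ets1 9.68, beside 9.93 and 9.99. The 11 foregut and visceral endoderm markers averaged 8.94 there, beside 8.73 and 8.56, and 8.33 to 9.06 on the arrays of the other groups. The part of either list in the member values of that replicate was not tested. The standard deviation over probe sets was 2.13 to 2.19 on the WT and single KO arrays and 2.05 to 2.10 on the double KO arrays.

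The letters just before the transcription starts of 5 members on which the results turn are shown here, with matches to the motif of T-box factors such as Tbx5 and to the core bound by Nkx2-5 in capitals. They are 250 bases read 5′ to 3′ from RefSeq, build GRCm38.p6: Sema3c (chr5:17574566-17574815, plus strand), Sema3a (chr5:13396534-13396783, plus strand), Plxna2 (chr1:194619579-194619828, plus strand), Plxnc1 (chr10:94944846-94945095, minus strand) and the first of 2 starts of Sema6d (chr2:124089719-124089968, plus strand).
Sema3c: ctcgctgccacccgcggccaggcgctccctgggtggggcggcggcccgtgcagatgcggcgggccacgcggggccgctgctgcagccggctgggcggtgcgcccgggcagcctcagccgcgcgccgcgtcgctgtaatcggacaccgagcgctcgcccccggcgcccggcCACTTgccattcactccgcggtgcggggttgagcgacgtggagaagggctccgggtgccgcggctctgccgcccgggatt
Sema3a: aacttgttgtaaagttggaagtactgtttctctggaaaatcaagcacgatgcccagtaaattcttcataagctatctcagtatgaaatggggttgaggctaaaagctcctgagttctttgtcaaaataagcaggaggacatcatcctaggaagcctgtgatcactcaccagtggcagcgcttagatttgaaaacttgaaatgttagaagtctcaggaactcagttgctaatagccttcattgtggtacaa
Plxna2: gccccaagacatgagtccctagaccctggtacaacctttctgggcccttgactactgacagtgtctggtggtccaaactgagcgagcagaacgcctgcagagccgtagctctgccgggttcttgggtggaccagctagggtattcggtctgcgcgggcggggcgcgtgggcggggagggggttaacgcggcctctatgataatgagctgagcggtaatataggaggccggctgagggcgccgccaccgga
Plxnc1: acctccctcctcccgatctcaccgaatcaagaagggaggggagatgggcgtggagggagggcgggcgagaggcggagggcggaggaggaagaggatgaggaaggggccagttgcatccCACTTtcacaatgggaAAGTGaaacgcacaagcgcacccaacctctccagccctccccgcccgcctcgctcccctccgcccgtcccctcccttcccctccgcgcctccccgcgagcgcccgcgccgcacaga
Sema6d: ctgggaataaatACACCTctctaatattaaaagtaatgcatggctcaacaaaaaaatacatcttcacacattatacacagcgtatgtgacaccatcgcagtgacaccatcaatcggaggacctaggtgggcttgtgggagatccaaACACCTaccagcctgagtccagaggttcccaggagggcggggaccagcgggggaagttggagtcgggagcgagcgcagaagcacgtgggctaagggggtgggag
AGGTGT (bound by T-box factors) and AAGTG (Nkx2-5 core) were searched on both strands. The Sema3c window held 1 AAGTG on the reverse strand, 80 to 76 bases before the start. The Plxnc1 window held 1 AAGTG on each strand, and the Sema6d window held AGGTGT 2 times, both on the reverse strand. The windows of Sema3a, Plxna2 and the other start of Sema6d held neither. No matches overlapped in these windows. Of 32851 windows of this length in the table, 11.8% held AGGTGT and 40.7% held AAGTG. For the members, 26 of which had 37 windows in the table, these shares were 13.5% and 24.3%. A match is a run of letters, not a site shown to be bound.

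Among the secreted class 3 semaphorins, Sema3c and Sema3a fell and Sema3e, Sema3f and Sema3g rose in 1 or more KO groups. Sema3c, which outflow tract muscle makes and which guides cardiac neural crest cells, was 10.17, 9.94 and 9.51 in WT, 8.59, 9.15 and 8.19 in Nkx2-5 KO, 9.21, 9.86 and 9.65 in Tbx5 KO and 8.31, 7.83 and 8.58 in double KO. The 6 arrays that lack Nkx2-5 all lay below the 6 that have it. Loss of Nkx2-5 alone gave a Sema3c value that fell by 1.23 ± 0.26 (2.35-fold, adjusted p = 0.022). With both factors lost, Sema3c fell by 1.63 ± 0.26 (3.10-fold, adjusted p = 0.000784). In Tbx5 KO its change was -0.30 ± 0.26 (adjusted p = 0.69, 95% interval -0.87 to 0.27). Double KO lay 1.33 ± 0.26 below Tbx5 KO (adjusted p = 0.00618), and double KO minus Nkx2-5 KO was -0.40 ± 0.26 (adjusted p = 0.396). The call for loss of Nkx2-5 alone was lost when WT replicate 1 or Nkx2-5 KO replicate 1 or 3 was left out (adjusted p 0.0886 to 0.0978), while the calls of double KO against WT and against Tbx5 KO held in all 20 alternatives. The 9 measured markers of the second heart field and outflow tract averaged 9.20 to 9.33 on the WT arrays, 9.69 to 10.01 on the Nkx2-5 KO arrays, 9.61 to 9.84 on the Tbx5 KO arrays and 9.63 to 9.91 on the double KO arrays. In double KO 4 of them rose, with 3 in Tbx5 KO and 2 in Nkx2-5 KO, and no marker was called lower against WT. Their part in the Sema3c values was not tested.

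Sema3a, a repellent of axons that patterns the sympathetic nerves of the heart, was 10.39, 10.79 and 10.78 in WT. Its values were 9.80, 10.15 and 9.92 in Nkx2-5 KO, 9.42, 9.69 and 10.13 in Tbx5 KO and 9.43, 9.71 and 9.88 in double KO. All 9 KO arrays lay below all 3 WT arrays, and the 3 KO groups overlapped one another. Sema3a fell by 0.91 ± 0.18 in Tbx5 KO (adjusted p = 0.0227), and with both factors lost it fell by 0.98 ± 0.18 (1.97-fold, adjusted p = 0.00199). The Nkx2-5 KO value was -0.69 ± 0.18 (adjusted p = 0.051), which was called in 10 of 20 alternatives, down to 0.0119 with array weights. The call in Tbx5 KO ended without WT replicate 2, WT replicate 3, Tbx5 KO replicate 1 or Tbx5 KO replicate 2 and with only the arrays compared (0.0585 to 0.0921), and that in double KO held in all 20. Double KO differed from Tbx5 KO by -0.07 ± 0.18, with a 95% interval from -0.47 to 0.32.

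Sema3d, which guides endothelial cells of the pulmonary veins and is made in the epicardial lineage, varied most among WT arrays. It was 7.72, 9.29 and 7.59 in WT, 7.56, 7.97 and 7.53 in Nkx2-5 KO, 7.01, 6.95 and 6.99 in Tbx5 KO and 7.39, 7.23 and 8.04 in double KO. The Tbx5 KO arrays lay below those of the other 9, and WT replicate 2 lay above all others. The change in Tbx5 KO was -1.21 ± 0.36 (adjusted p = 0.105, 95% interval -1.98 to -0.44), not called. The 7 markers of proepicardium and epicardium, which include Sema3d itself, averaged 9.04 on WT replicate 2, 8.08 and 8.32 on the other WT arrays and 7.89 to 8.15 on the KO arrays. Their part in the Sema3d values was not tested.

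Sema3e, a vascular guidance cue that binds plexin D1 directly, was 7.30 to 7.49 in WT, 7.82 to 8.17 in Nkx2-5 KO, 7.41 to 7.81 in Tbx5 KO and 7.55 to 8.02 in double KO. It rose by 0.62 ± 0.15 in Nkx2-5 KO (adjusted p = 0.0361) and in double KO by 0.45 ± 0.15 (adjusted p = 0.0432). The first call ended without any 1 of the WT or Nkx2-5 KO arrays and with a replicate block (0.0643 to 0.134). The second ended in 12 of 19 alternatives, among them without any 1 of the WT arrays, without Nkx2-5 KO replicate 2, Tbx5 KO replicate 1, or double KO replicate 2 or 3, and after quantile normalization again (0.0509 to 0.151). Sema3d, Sema3a, Sema3e and Sema3c lie in this order within a run of 22 protein-coding genes on chromosome 5, and their changes in Nkx2-5 KO were -0.51, -0.69, 0.62 and -1.23.

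Sema3f and Sema3g, ligands that use neuropilin 2 in vessels and nerves, rose in double KO by 0.40 ± 0.10 (adjusted p = 0.0145) and 0.37 ± 0.12 (adjusted p = 0.0363). Sema3f was 8.73 to 8.83 in WT and 9.02 to 9.36 in double KO, and its call ended without double KO replicate 1 (0.0624). The Sema3g call was lost on leaving out WT replicate 1 or 2 or double KO replicate 2, with a replicate block and with only the arrays compared (0.0553 to 0.147). Sema3b, a class 3 member known as a growth suppressor, was not called in any comparison, with 0.08 ± 0.12 in double KO.

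Of the membrane-bound semaphorins, Sema4g, Sema6c, Sema6d and the lipid-anchored Sema7a rose in double KO. Sema4g was 8.08, 7.97 and 8.30 in WT, 8.41, 8.89 and 8.60 in Nkx2-5 KO, 8.48 to 8.69 in Tbx5 KO and 8.74, 8.77 and 8.92 in double KO. All KO arrays were above the WT arrays. It rose by 0.70 ± 0.13 in double KO (adjusted p = 0.002), which held in all 20 alternatives, and by 0.52 ± 0.13 in Nkx2-5 KO (adjusted p = 0.0443), which ended in 16 of 20 (0.052 to 0.146), including without any 1 array other than double KO replicate 3. In Tbx5 KO it was 0.44 ± 0.13 (adjusted p = 0.108).

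Sema7a, which signals through plexin C1 and through integrins, was 7.36, 7.41 and 7.59 in WT, 7.75, 8.05 and 8.11 in Nkx2-5 KO, 8.07, 7.77 and 8.14 in Tbx5 KO and 7.90, 8.22 and 7.89 in double KO. The WT arrays lay below the 9 KO arrays. Sema7a rose in double KO by 0.55 ± 0.14 (adjusted p = 0.0118), which was lost on leaving out double KO replicate 2 (0.0579) and after quantile normalization again (0.0515). The single KO values were 0.52 ± 0.14 (Nkx2-5 KO, adjusted p = 0.0522) and 0.54 ± 0.14 (Tbx5 KO, adjusted p = 0.0627). Sema6c was 7.93 to 8.10 in WT and 8.25 to 8.33 in double KO. It rose by 0.27 ± 0.09 there (adjusted p = 0.0379), a call that ended in 10 of 19 alternatives (0.0516 to 0.242), among them without WT replicate 1, WT replicate 3, Nkx2-5 KO replicate 1 or any 1 double KO array.

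Sema6d, known for its role with plexin A1 in shaping the cardiac chambers, was 10.34, 10.70 and 10.29 in WT, 10.29, 10.49 and 10.29 in Nkx2-5 KO, 9.99, 9.99 and 10.27 in Tbx5 KO and 11.01, 10.84 and 10.91 in double KO. The double KO arrays lay above those of every other group, and the Tbx5 KO arrays below those of WT. It rose in double KO by 0.48 ± 0.12 against WT (adjusted p = 0.0146), by 0.56 ± 0.12 against Nkx2-5 KO (adjusted p = 0.0208) and by 0.84 ± 0.12 against Tbx5 KO (1.78-fold, adjusted p = 0.00116). The single KO changes were -0.08 ± 0.12 (Nkx2-5 KO) and -0.36 ± 0.12 (Tbx5 KO, adjusted p = 0.175). Its non-additive term, by which the change in double KO departs from adding up those of Nkx2-5 KO and Tbx5 KO, was 0.92 ± 0.18 (adjusted p = 0.0416), and it was the 1 member of 31 called in that term, beside 0.547% of all genes (0.0903% higher, 0.456% lower). The call against Tbx5 KO held in all 20 alternatives. The call against WT ended without WT replicate 1, WT replicate 3 or double KO replicate 1 (0.0528 to 0.0616), that against Nkx2-5 KO without Nkx2-5 KO replicate 1, Nkx2-5 KO replicate 3 or double KO replicate 1 (0.0588 to 0.0826), and the non-additive call in 12 of 19 alternatives (0.0524 to 0.12), including without any 1 array other than Tbx5 KO replicate 3 or double KO replicate 3.

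Sema6a, a membrane ligand of plexins A2 and A4, differed between the single KOs. It was 8.87, 9.26 and 9.42 in WT, 9.66, 10.07 and 9.48 in Nkx2-5 KO, 8.84, 8.42 and 8.61 in Tbx5 KO and 9.26, 9.03 and 9.54 in double KO. Nkx2-5 KO lay above WT and Tbx5 KO below it without overlap, and double KO overlapped WT. Tbx5 KO was 1.11 ± 0.19 below Nkx2-5 KO (2.17-fold, adjusted p = 0.00644), which held in all 20 alternatives. Against WT neither single KO was called (0.55 ± 0.19, adjusted p = 0.123, and -0.56 ± 0.19, adjusted p = 0.156). Double KO lay 0.65 ± 0.19 above Tbx5 KO (adjusted p = 0.0435), a call that ended in 10 of 20 alternatives (0.0511 to 0.133), among them without WT replicate 2, Nkx2-5 KO replicate 1, any 1 Tbx5 KO array, or double KO replicate 1 or 3.

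Sema5a, whose product carries thrombospondin repeats and acts on axons and vessels, was 7.88, 8.14 and 8.68 in WT, 7.98 to 8.84 in Nkx2-5 KO, 9.33, 8.94 and 9.12 in Tbx5 KO and 8.19, 8.35 and 8.47 in double KO. The Tbx5 KO arrays were above the other 9. Double KO was 0.79 ± 0.23 below Tbx5 KO (adjusted p = 0.0483), a call that ended in 9 of 20 alternatives (0.0539 to 0.153), including without WT replicate 2, Nkx2-5 KO replicate 1 or any 1 Tbx5 KO or double KO array. The Tbx5 KO value against WT was 0.90 ± 0.23 (adjusted p = 0.0697). Array weights (0.033) and leaving out WT replicate 3 (0.0457) or Nkx2-5 KO replicate 2 (0.0249) each made it a call.

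No call was made for Sema4a, Sema4b, Sema4c, Sema4d, Sema4f, Sema5b or Sema6b in the 7 comparisons. Sema4d, the ligand of plexin B1, was 0.06 ± 0.10, -0.01 ± 0.10 and 0.07 ± 0.10 in Nkx2-5 KO, Tbx5 KO and double KO, with 95% intervals inside -0.23 to 0.28. Its other probe set, almost as bright (8.51 beside 8.55 over 12 arrays), gave 0.46 ± 0.13 in double KO, so the 2 probe sets differ there. The lack of a call for Sema4d was read on the brighter one. Those of Sema6b held the same values. Sema4b was 0.47 ± 0.13 in Tbx5 KO, without overlap with WT but not called (adjusted p = 0.0864).

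**Figure D2:**
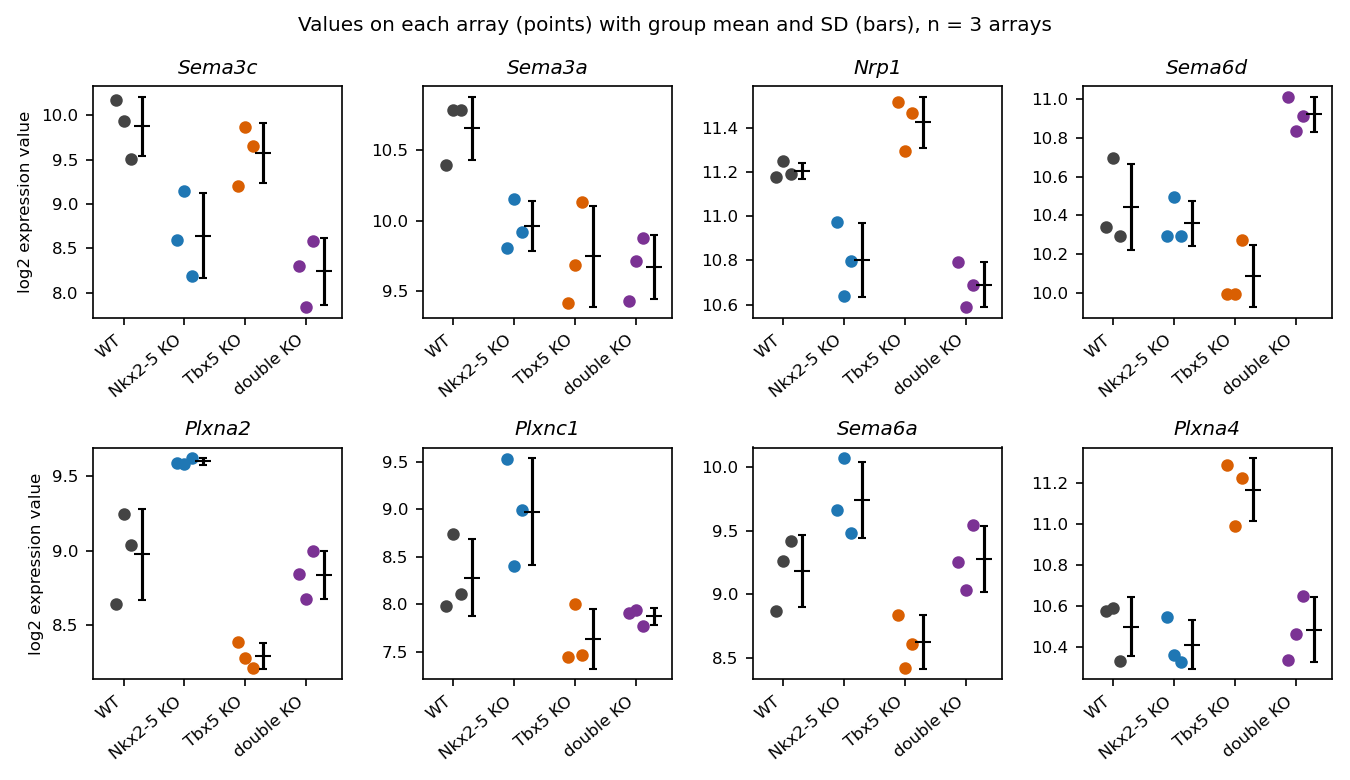
Points are the log2 values on each array of the 4 groups for 8 genes, and the bar beside them is the group mean with its SD (n = 3 arrays). The axes do not start at 0 and differ between panels. Sema3c and Nrp1 are low in Nkx2-5 KO and double KO, Plxna2 and Sema6a are high in Nkx2-5 KO and low in Tbx5 KO, Plxna4 is high in Tbx5 KO and Sema6d in double KO.

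Among the receptors, Plxna2 moved in opposite directions in the single KOs. Plexin A2 is a receptor of migrating cardiac neural crest cells and of neurons. Plxna2 was 8.64, 9.25 and 9.04 in WT, 9.59, 9.59 and 9.62 in Nkx2-5 KO, 8.39, 8.28 and 8.21 in Tbx5 KO and 8.845, 8.674 and 8.997 in double KO. The Nkx2-5 KO arrays lay above all others, the Tbx5 KO arrays below all others, and double KO overlapped WT. It rose by 0.63 ± 0.14 in Nkx2-5 KO (adjusted p = 0.0247) and fell by 0.68 ± 0.14 in Tbx5 KO (adjusted p = 0.0232). Tbx5 KO lay 1.31 ± 0.14 below Nkx2-5 KO (2.48-fold, adjusted p = 0.000237), where 5 of 31 members were called (2 higher, 3 lower) beside 2.39% of all genes (1.01% higher, 1.37% lower), and the arrays of 13 members did not overlap beside 18.4% of all genes. Double KO minus WT was -0.14 ± 0.14 (95% interval -0.44 to 0.16), and the non-additive term was -0.08 ± 0.20 (95% interval -0.50 to 0.34). The inflow tract and atrium markers Hcn4, a pacemaker channel, and Vsnl1, a calcium sensor, also lay above WT in Nkx2-5 KO and below it in Tbx5 KO without overlap, as Plxna2 and Sema6a did. Hcn4 averaged 9.78 in WT, 10.68 in Nkx2-5 KO and 8.56 in Tbx5 KO, and Vsnl1 10.90, 12.70 and 7.22. The other markers of that list did not show this order. Nr2f1 averaged 9.45 in WT and 8.74 in Nkx2-5 KO, Shox2 7.54 and 6.84, and Wnt2 8.74 in WT and 9.86 in Tbx5 KO. The 8 markers of that list averaged 8.84 to 9.20 on the WT arrays, 8.92 to 9.37 on the Nkx2-5 KO arrays, 7.79 to 7.86 on the Tbx5 KO arrays and 8.02 to 8.20 on the double KO arrays. In Nkx2-5 KO 2 rose and 2 fell, and in Tbx5 KO 1 rose and 6 fell. The 12 endocardium and endothelium markers averaged 9.94 to 10.145 on the Nkx2-5 KO arrays and 9.68 to 9.77 on the Tbx5 KO arrays. On the WT and double KO arrays they averaged 9.48 to 10.14 and 9.63 to 9.77. In Tbx5 KO against Nkx2-5 KO, 11 of the 12 had a value below 0 and 1 above. There 1 was called lower, beside 1.37% of all genes, and the arrays of 8 did not overlap, beside 18.4%. The part of either list in the values of Plxna2, Sema6a and Furin was not tested.

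With the other factor already lost, the same directions were measured for Plxna2. It was 0.76 ± 0.14 lower in double KO than in Nkx2-5 KO (adjusted p = 0.00745) and 0.55 ± 0.14 higher than in Tbx5 KO (adjusted p = 0.0235). The calls of double KO against Nkx2-5 KO and of Tbx5 KO against Nkx2-5 KO held in all 20 alternatives. The call of the rise in Nkx2-5 KO was lost on leaving out replicate 1 or 3 of WT or of Nkx2-5 KO and with only the arrays compared (0.0572 to 0.0905). The fall in Tbx5 KO ended without WT replicate 2 or 3 or any 1 Tbx5 KO array and with only the arrays compared (0.0564 to 0.0894), and double KO against Tbx5 KO without Tbx5 KO replicate 2 or 3 or double KO replicate 1 or 3 (0.059 to 0.0808).

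Plxnc1, the receptor of Sema7a, was 7.99, 8.74 and 8.11 in WT, 9.53, 8.41 and 8.99 in Nkx2-5 KO, 7.45, 8.01 and 7.46 in Tbx5 KO and 7.91, 7.94 and 7.78 in double KO. The Nkx2-5 KO arrays overlapped WT and lay above the Tbx5 KO and double KO arrays. It was 1.34 ± 0.26 lower in Tbx5 KO than in Nkx2-5 KO (2.53-fold, adjusted p = 0.0156) and 1.10 ± 0.26 lower in double KO than in Nkx2-5 KO (2.15-fold, adjusted p = 0.0292). Against WT it was not called in Nkx2-5 KO (0.69 ± 0.26, adjusted p = 0.168, and 0.0181 with array weights), Tbx5 KO (-0.64 ± 0.26, adjusted p = 0.258) or double KO (-0.41 ± 0.26, adjusted p = 0.281). The call of Tbx5 KO against Nkx2-5 KO ended without replicate 1 or 3 of either group (0.0594 to 0.0781). The call of double KO against Nkx2-5 KO ended without Nkx2-5 KO replicate 1 or 3, any 1 double KO array, with a replicate block and with only the arrays compared (0.0504 to 0.108).

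Plxna4, a receptor for Sema3a with neuropilin 1 and for class 6 semaphorins, was high in Tbx5 KO. It was 10.58, 10.59 and 10.33 in WT, 10.55, 10.36 and 10.33 in Nkx2-5 KO, 11.28, 10.99 and 11.22 in Tbx5 KO and 10.34, 10.47 and 10.65 in double KO. The 3 Tbx5 KO arrays lay above the other 9, which overlapped. Plxna4 rose by 0.67 ± 0.12 in Tbx5 KO (1.59-fold, adjusted p = 0.0125), and double KO lay 0.68 ± 0.12 below Tbx5 KO (adjusted p = 0.003). The first call was lost on leaving out WT replicate 3 (0.059) or Tbx5 KO replicate 1 (0.0588), and the second held in all 20 alternatives. The non-additive term was -0.59 ± 0.17 (adjusted p = 0.196, and 0.0357 with array weights). The average of the trophoblast and decidua markers was high on the same 3 arrays (given above). In Tbx5 KO 5 of the 9 markers rose, and 3 had a mean below that of WT. Their part in the high values of Plxna4, Sema5a and Sema4b was not tested.

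The X-linked Plxna3 and Plxnb3 rose in double KO by 0.42 ± 0.10 (adjusted p = 0.011) and 0.38 ± 0.10 (adjusted p = 0.0191). Plexin A3 binds class 3 semaphorins with neuropilin 2, and plexin B3 binds Sema5a. Plxna3 was 8.46 to 8.81 in WT, 8.66 to 8.78 in Nkx2-5 KO, 8.71 to 8.90 in Tbx5 KO and 8.97 to 9.13 in double KO. Plxnb3 was 7.56 to 7.70 in WT, 7.62 to 7.98 in Nkx2-5 KO, 7.62 to 7.72 in Tbx5 KO and 7.94 to 8.12 in double KO. Against Nkx2-5 KO, whose arrays are alike in Xist, the double KO values were 0.31 ± 0.10 (Plxna3, adjusted p = 0.1) and 0.19 ± 0.10 (Plxnb3, adjusted p = 0.295), not called. The Plxna3 call ended without WT replicate 1 (0.0524). The Plxnb3 call ended without WT replicate 1 (0.0709) or double KO replicate 1 (0.0732) and after quantile normalization again (0.129). Plxnb3 also lay 0.36 ± 0.10 above Tbx5 KO (adjusted p = 0.0458), a call that ended in 14 of 19 alternatives (0.0554 to 0.147), including without any 1 array other than Nkx2-5 KO replicate 1 or 2.

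Plxna1, Plxnb1, Plxnb2 and Plxnd1 were not called in any comparison. Plxna1, the receptor named with Sema6d, was close to its WT mean of 9.75 ± 0.07 (SD, n = 3) in every KO group, with differences of -0.05, 0.07 and -0.01, each ± 0.09, and 95% intervals inside -0.24 to 0.26. Plxnb1 differed from WT by 0.11, -0.14 and -0.02, each ± 0.10. Plxnb2 was 9.07, 9.49 and 9.54 in WT and 8.88 to 9.18 in double KO, a difference of -0.33 ± 0.14 (adjusted p = 0.0948, and 0.02 without WT replicate 1). Plxnd1, the plexin of endothelium, was 9.41, 10.57 and 9.99 in WT, 10.48, 10.12 and 10.50 in Nkx2-5 KO, 9.64, 9.93 and 9.92 in Tbx5 KO and 10.00, 9.95 and 10.19 in double KO. The WT arrays alone spanned the values of the other groups. The 12 markers of endocardium and endothelium averaged 9.48, 10.14 and 9.87 on the WT arrays, in the same order as Plxnd1, and their part in the Plxnd1 values was not tested.

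Nrp1, the co-receptor of Sema3a and of vascular endothelial growth factor, fell where Nkx2-5 was lost. It was 11.18, 11.25 and 11.19 in WT, 10.97, 10.64 and 10.80 in Nkx2-5 KO, 11.52, 11.29 and 11.47 in Tbx5 KO and 10.79, 10.59 and 10.69 in double KO. The 6 arrays without Nkx2-5 lay below the 3 WT arrays, and the Tbx5 KO arrays above them. Nrp1 fell by 0.52 ± 0.10 in double KO (1.43-fold, adjusted p = 0.00338) and by 0.40 ± 0.10 in Nkx2-5 KO (adjusted p = 0.0493). Double KO lay 0.74 ± 0.10 below Tbx5 KO (1.67-fold, adjusted p = 0.000836), and Tbx5 KO 0.62 ± 0.10 above Nkx2-5 KO (adjusted p = 0.00643). These last 2 calls and that of double KO against WT held in all 20 alternatives, while the call in Nkx2-5 KO ended in 17 of 20 (0.0504 to 0.13), including without any 1 of the 12 arrays. The Tbx5 KO value was 0.22 ± 0.10 (adjusted p = 0.355).

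Nrp2, the co-receptor of Sema3c and Sema3f, was 9.73, 9.47 and 9.36 in WT, 9.18, 9.49 and 9.49 in Nkx2-5 KO, 9.04, 10.30 and 10.08 in Tbx5 KO and 9.16, 9.02 and 9.65 in double KO. Tbx5 KO replicate 1 lay below all WT arrays and the other Tbx5 KO arrays above them. No comparison was called. Double KO minus Tbx5 KO was -0.53 ± 0.27 (adjusted p = 0.248), and 0.0144 without Tbx5 KO replicate 1. The 95% interval of double KO minus WT ran from -0.83 to 0.34.

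**Figure D3:**
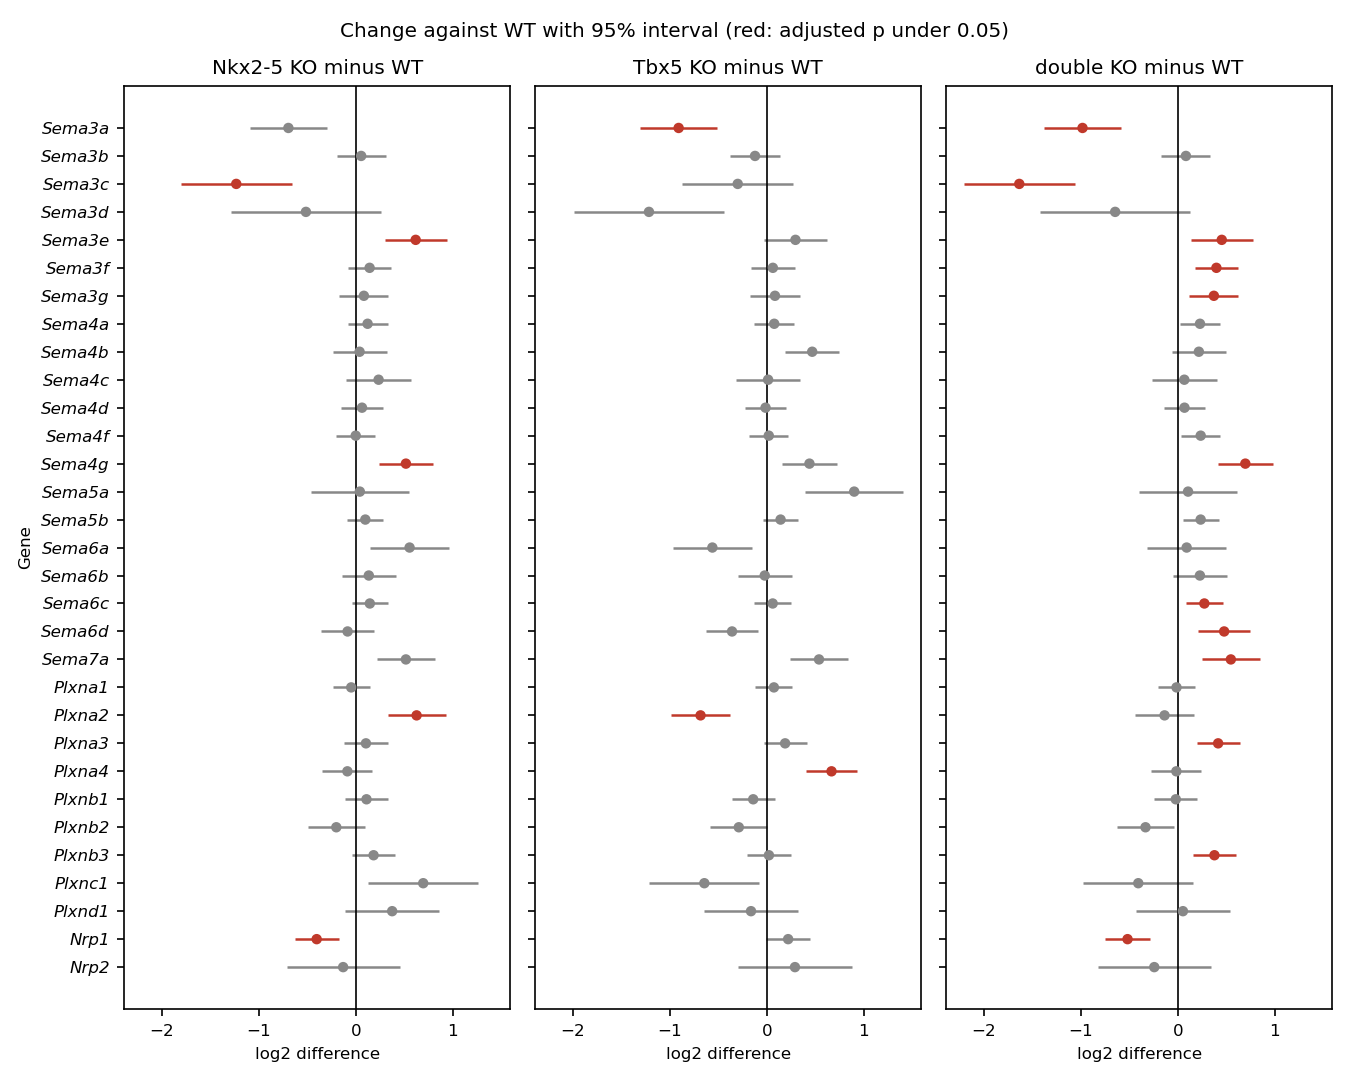
Points are log2 differences of each KO group from WT for the 31 genes, with 95% intervals from the limma fit, in red where adjusted p was under 0.05. Sema3c, at -1.63 in double KO, is the lowest point of the 3 panels, and the 9 called rises of double KO lie to the right of 0.

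The 2 losses were also compared on both backgrounds, in pairs of comparisons that share no array. For the loss of Tbx5 (Tbx5 KO minus WT, and double KO minus Nkx2-5 KO), 23 of 31 members had the same sign on both backgrounds, 74.2%, beside 65% of all genes. In double KO against Nkx2-5 KO, 3 of 31 members were called (1 higher, 2 lower), beside 5.56% of all genes (1.01% higher, 4.55% lower). The arrays of 8 members did not overlap there, beside 26.1% of all genes. Plxna2 was the 1 member called on both, beside 164 of all 19938 genes (158 in the same direction). For the loss of Nkx2-5 (Nkx2-5 KO minus WT, and double KO minus Tbx5 KO), 26 of 31 had the same sign, 83.9%, beside 66.6% of all genes. In double KO against Tbx5 KO, 8 of 31 were called (4 higher, 4 lower), beside 10.7% of all genes (2.87% higher, 7.86% lower). The arrays of 19 members did not overlap there, beside 29% of all genes. Sema3c, Plxna2 and Nrp1 were called on both, each in the same direction, beside 480 of all 19938 genes (473 in the same direction). Each of these 2 comparisons set arrays low in Xist against arrays high in it. Their agreement therefore cannot tell Nkx2-5 loss and that difference apart, whereas the comparisons for the loss of Tbx5 used arrays alike in Xist. Across genes, Pearson's r between the 2 backgrounds was 0.50 (Tbx5) and 0.56 (Nkx2-5) over 31 members, beside 0.45 and 0.57 over all genes. Genes are not independent replicates, and all values come from 1 normalized table. Sema6d had opposite signs on the 2 backgrounds for Tbx5 loss (-0.36 and 0.56), and Plxna4 was 0.67 with Nkx2-5 present and 0.07 without it.

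**Figure D4:**
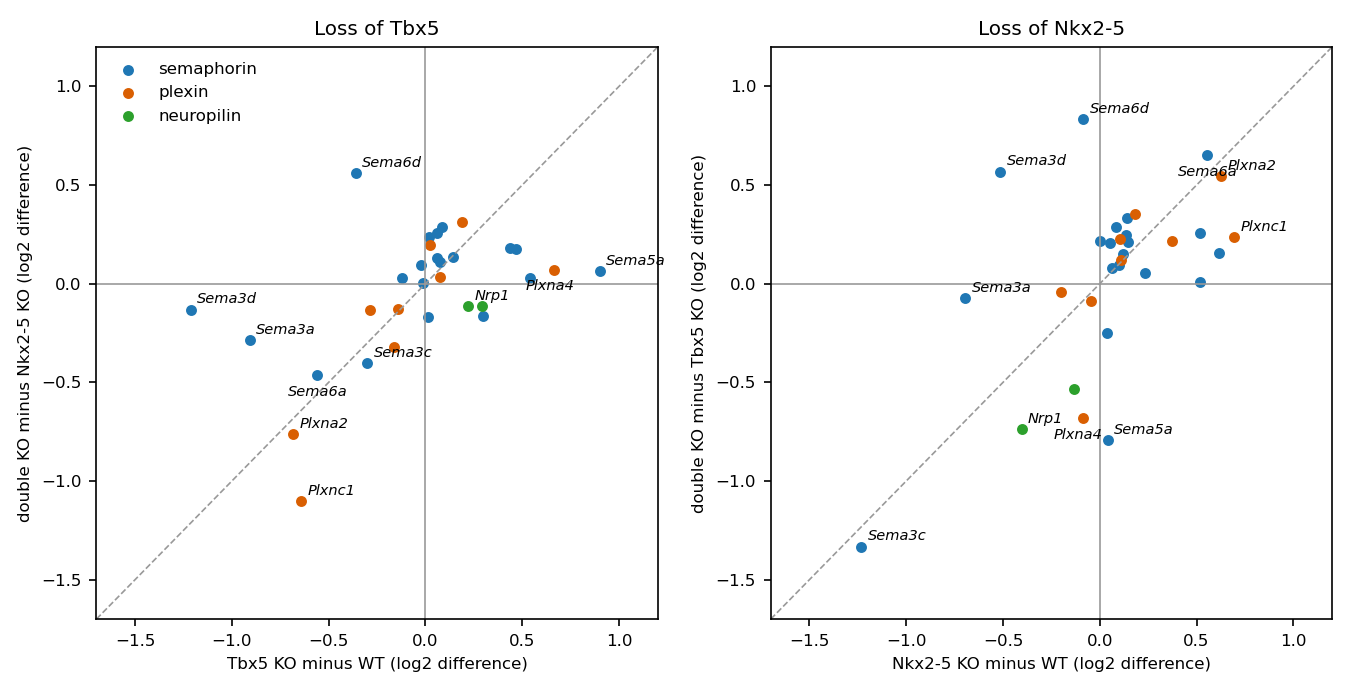
Each point is a gene. The left panel plots the log2 change with loss of Tbx5 in hearts without Nkx2-5 against that in hearts with it, and the right panel does the same for loss of Nkx2-5. The dashed line marks equal change. Plxna2 lies near the line in both panels, at -0.68 and -0.76 on the left and 0.63 and 0.55 on the right, and Sema6d lies far from it.

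The 9 rises in double KO were set beside the change of all genes of like signal. All genes were split by WT mean into 5 bins of equal size. In the bin that ends at a WT mean of 7.93 and the next, which ends at 8.80, the median change of all genes in double KO was 0.145 and 0.116, and 10.1% and 11.9% of genes were called higher. In the brightest bin, above 10.09, the median was -0.276 and 43.6% were called lower. These 2 bins held 19 members, of which 8 rose, with member medians of 0.307 and 0.217. Those 8 were Sema3e, Sema3f, Sema3g, Sema4g, Sema6c, Sema7a, Plxna3 and Plxnb3. Sema6d rose from the brightest bin, where Sema3a and Nrp1 fell, and Sema3c fell from the bin below it. The narrower spread of the double KO arrays moves with these rises, and its part in them was not tested. After quantile normalization again, Sema3e, Sema6c, Sema7a and Plxnb3 were no longer called in double KO, while Sema3f, Sema3g, Sema4g, Sema6d and Plxna3 were.

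**Figure D5:**
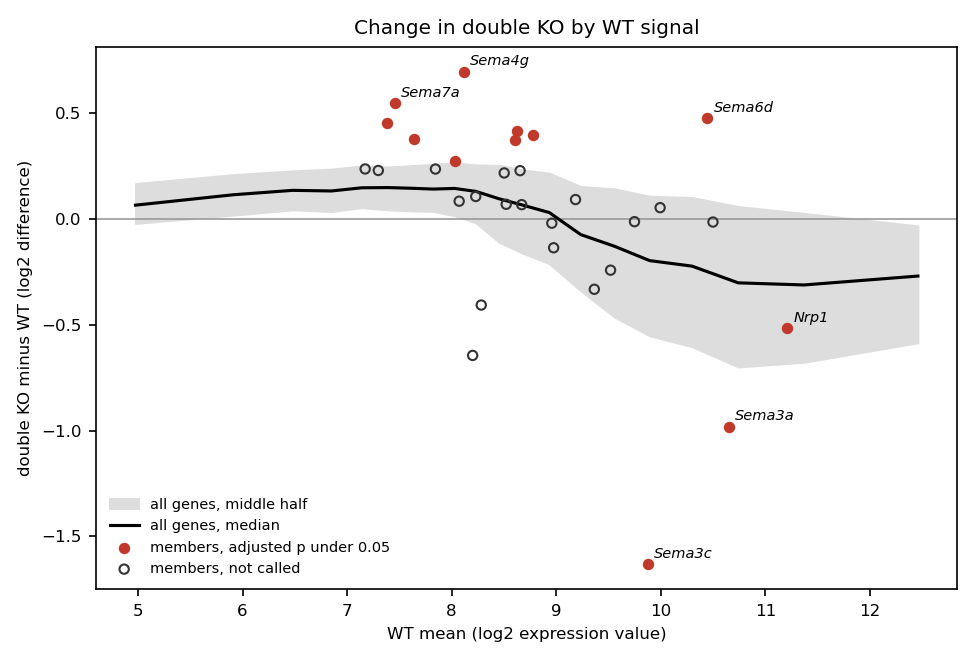
The line is the median, and the grey band the middle 50% of genes, of the log2 change in double KO in 20 bins of WT signal, and points are the 31 members. Sema4g (0.70) and Sema7a (0.55) lie above the band of genes with like signal, Sema6d (0.48) lies above a falling median, and Sema3c (-1.63) lies far below it.

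The other genes of the pathway were read from a list of 55 genes, of which 52 were measured. In Nkx2-5 KO, 3 rose and 1 fell (7.69%), in Tbx5 KO 0 were called in the limma fit and 10 had an unadjusted p under 0.05 (beside 14.9% of all genes), and in double KO 5 rose and 6 fell (21.2%). In double KO 3 fell against Nkx2-5 KO (5.77%), and 1 rose and 4 fell against Tbx5 KO (9.62%). In Tbx5 KO against Nkx2-5 KO 1 rose and 1 fell (3.85%). No pathway gene was called in the non-additive term, where 3 had an unadjusted p under 0.05 (beside 8.89% of all genes). The shares of all genes called are those given above. Dpysl3, a collapsin response mediator protein that links plexins to the cytoskeleton, was 11.49, 11.50 and 11.26 in WT, 9.76, 9.52 and 9.40 in Nkx2-5 KO, 11.77, 11.59 and 11.55 in Tbx5 KO and 9.43, 9.24 and 10.06 in double KO. The 6 arrays without Nkx2-5 lay below the 6 with it. It fell by 1.86 ± 0.18 in Nkx2-5 KO (3.62-fold, adjusted p = 0.00023) and in double KO by 1.84 ± 0.18 (adjusted p = 3.13e-05), and was 0.22 ± 0.18 in Tbx5 KO (adjusted p = 0.654).

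Dpysl2, the mediator through which Sema3a collapses growth cones, fell by 0.89 ± 0.11 in double KO (adjusted p = 0.00016) and was -0.39 ± 0.11 in Nkx2-5 KO (adjusted p = 0.0703) and -0.25 ± 0.11 in Tbx5 KO (adjusted p = 0.323). Its values were 11.11, 11.19 and 11.03 in WT and 10.32, 10.16 and 10.17 in double KO, without overlap. Against Nkx2-5 KO it fell in double KO by 0.50 ± 0.11 (adjusted p = 0.0223), a call lost after quantile normalization again and on leaving out Nkx2-5 KO replicate 1 or 2 or double KO replicate 2 or 3 (0.0508 to 0.0954). Vegfc, a growth factor that binds neuropilin 2, rose by 1.27 ± 0.24 in Nkx2-5 KO (adjusted p = 0.0149, and 0.0652 without Nkx2-5 KO replicate 1) and by 1.29 ± 0.24 in double KO (adjusted p = 0.00216). Vegfa, a ligand of neuropilin 1, rose by 1.04 ± 0.16 in Nkx2-5 KO (adjusted p = 0.00567) and in double KO by 1.19 ± 0.16 (adjusted p = 0.000236), and its receptor gene Flt1 rose there by 1.09 ± 0.22 (adjusted p = 0.00333). Rnd2, a small GTPase that binds plexins, fell by 0.90 ± 0.20 in double KO (adjusted p = 0.00558), and Erbb2, a receptor kinase that partners plexins of the B class, by 0.72 ± 0.14 (adjusted p = 0.00257). Tiam1, an activator of Rac, rose by 0.38 ± 0.10 in Nkx2-5 KO (adjusted p = 0.0449), a call that ended in 14 of 20 alternatives, including without any 1 array other than Nkx2-5 KO replicate 2, Tbx5 KO replicate 3 or double KO replicate 3 (0.0535 to 0.18). Gipc1, an adaptor that binds the tail of neuropilin 1, was 0.48 ± 0.11 lower in double KO than in Tbx5 KO (adjusted p = 0.0122, and 0.0555 with only the arrays compared).

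Furin, a protease that cleaves class 3 semaphorins, differed between the single KOs. It was 9.50, 9.44 and 9.53 in WT, 10.28, 9.88 and 9.88 in Nkx2-5 KO, 8.87, 9.16 and 9.10 in Tbx5 KO and 9.06, 9.15 and 9.56 in double KO. Nkx2-5 KO arrays lay above WT and Tbx5 KO arrays below it, the order also measured for Plxna2 and Sema6a. It was 0.97 ± 0.15 lower in Tbx5 KO than in Nkx2-5 KO (adjusted p = 0.00276) and 0.76 ± 0.15 lower in double KO than in Nkx2-5 KO (adjusted p = 0.00992, and 0.05 with only the arrays compared). Against WT its values were 0.53 ± 0.15 in Nkx2-5 KO (adjusted p = 0.0608) and -0.45 ± 0.15 in Tbx5 KO (adjusted p = 0.145).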

How the data were processed

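Per the labels' protocols, total RNA came from PicoPure columns, NuGEN Ovation amplified it and biotin marked it for 12 arrays. The authors deposited log2 values for 35557 probe sets. Their summarization and normalization are not given in the sources used here, and no further normalization was applied. Of the probe sets, 21789 had 1 gene symbol in the platform annotation, 1621 had several and 12147 had none listed. Genes with several probe sets were read on the brightest, which left 19938 genes, with no filter. For arrays, their number limits the precision.

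limma 3.58.1 in R 4.3.3 estimated the mean of each of 4 groups from 12 arrays (lmFit, eBayes, two-sided, 8 residual and 4.51 prior degrees of freedom), and the script was tested on simulated data. Its 7 comparisons are those between every 2 groups and the non-additive term. Named were Sema3c, Plxna2, every called member, members best known in heart or vessels, and up to 6 called pathway genes a comparison, whose list has 55 genes. The members, lists and rules were chosen with earlier results of these data known.

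Up to 20 alternatives were tried: quantile normalization again, centring, array weights, an intensity trend, a replicate block, a filter on dim genes, the mean of a gene's probe sets, only the arrays compared, and leaving out each array. The dim filter, which kept genes above the median of all values on at least 3 arrays, left 22 of 31 members. RefSeq (GRCm38.p6) gave chromosomes and promoter letters. Tables and plots used matplotlib 3.10.9, numpy 2.4.6 and pandas 2.3.3 on Python 3.11.15. Of same-numbered arrays of different groups, 3 of 18 pairs had a correlation of their deviations over 0.1, with a median of -0.013. For pairs with other numbers it was 9 of 36, with a median of 0.017.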

Additional observations from a re-analysis of the deposited data

Results flagged for a closer look

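The change of Sema6d with loss of Tbx5 differed between hearts with and without Nkx2-5. The non-additive term was 0.92 ± 0.18 (limma, adjusted p = 0.0416 over all genes, 3 arrays a group), with changes of -0.36 where Nkx2-5 was present and 0.56 where it was lost. The 3 double KO arrays lay above the 3 Nkx2-5 KO arrays and the 3 Tbx5 KO arrays below the 3 WT arrays. The adjusted p ranged from 0.00832 to 0.12 over 19 alternatives.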

How the results depend on the processing

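Of 37 calls of members in the 7 comparisons, 13 held in every alternative run for them, 24 ended in some alternative, and 0 turned direction. Counts of called members moved by over 1.5 times in these settings. In Nkx2-5 KO against WT the count of 5 became 3 after quantile normalization again, with centred arrays, with a replicate block and with only the arrays compared. In Tbx5 KO against WT the count of 3 became 5 with array weights and 1 with only the arrays compared. In double KO against Nkx2-5 KO the 3 became 6 with array weights, in double KO against Tbx5 KO the 8 became 5 with a replicate block, and in Tbx5 KO against Nkx2-5 KO the 5 became 8 with array weights. The non-additive count of 1 became 0 with centred arrays, 0 with a replicate block and 2 with array weights. The pathway genes called in any KO group against WT rose from 12 to 19 with array weights. The other 50 of 63 counts stayed within 1.5 times. With 1 array left out, the counts ranged from 0 to 5 (Nkx2-5 KO against WT), 0 to 4 (Tbx5 KO against WT), 7 to 13 (double KO against WT), 1 to 3 (double KO against Nkx2-5 KO), 4 to 8 (double KO against Tbx5 KO), 4 to 7 (Tbx5 KO against Nkx2-5 KO), 0 to 1 (non-additive) and 10 to 16 (pathway genes). The shares of all genes called in each alternative are not given beside these counts, so the moves cannot be read as particular to the members. The cause of the moves was not tested. The labels do not say that same-numbered arrays were paired, and with 3 arrays a group the correlations of deviations cannot settle it. Whether a call lost under the block reflects a weaker effect was not tested. The non-additive term needs all 12 arrays and has no value with only the arrays compared. With 3 arrays a group, a value that was not called is not shown to be unchanged.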
